A study of Ovis aries with 12 samples.

Results

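Of 24616 genes counted in sheep reproductive tissue, 20 stood higher in every high-fertility library of the ovary and corpus luteum than in every low-fertility library, by a factor of at least 1.5, while high and low fertility overlapped in endometrium. The genes were chosen by their values in CPM, a read count scaled to the size of its library, after the trimmed mean of M values method (TMM) had adjusted those sizes. The rule took genes with a summed count of at least 120 over all 12 libraries, which left 14405 genes, and a mean of at least 2 CPM over the 6 ovarian libraries, which left 12483. The lowest high-fertility ovarian library then had to reach at least 1.5 times the highest low-fertility one, which 24 genes met, or 0.192% of the 12483. In 4 of these 24 the endometrial libraries were also separated by fertility, in the same direction for 2 and in the opposite direction for the other 2, so 20 remained. Over the 12483 genes the endometrial ranges overlapped in 89.9%, so most genes would meet this last condition. Since the levels in all 4 fertility groups selected them, the fertility contrasts are given here as a description.

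The libraries formed 4 groups of 3, all from sheep (Ovis aries) with tissue flash frozen before RNA extraction. Co-L and Co-H are ovarian samples of low and high fertility. The labels call 5 of these 6 libraries ovary and 1, Co-H 3, corpus luteum, and the file headers call all 6 CL. T-L and T-H are endometrium of low and high fertility. The labels give no breed, age, cycle stage or treatment, do not say what Co and T stand for, and speak of pooled samples without saying what was pooled. Nothing in them says that the replicates are different animals, so p-values measure the spread between these samples, which may be technical.

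The ovary carries follicles, in which granulosa and theca cells surround the oocyte, and after ovulation the remaining follicle cells turn into the corpus luteum, a gland that secretes progesterone. Progesterone acts on the endometrium, the lining of the uterus, and readies it to receive an embryo. A piece of ovary can hold follicles, luteal tissue, stroma, vessels and leukocytes in varying parts, and in such bulk samples a change in the share of a cell type and a change in RNA per cell cannot be told apart. The genes carry cattle Ensembl identifiers, for which the files give no names. A sheep gene table was searched for them, with 0 matches. Their functions are therefore not described, tissue labels were not checked against marker genes, and genes are given by identifier.

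The Co libraries held 12665680 to 17852552 counts each and the T libraries 9627378 to 13934369, so that 1 count was worth between 0.0572 and 0.0974 scaled CPM. Co-H 2 and Co-H 3 stood apart from the other ovarian libraries, with TMM factors of 0.979 and 1.00 against 0.749 to 0.869, and with 17091 and 17014 genes detected against 15935 to 16609. The 20 genes together took 0.0123% to 0.0144% of the counts in Co-L, 0.0298% in Co-H 1, 0.05002% in Co-H 2 and 0.0490% in Co-H 3. They were 0.0168% to 0.0246% of the counts in T.

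**Figure D1:**
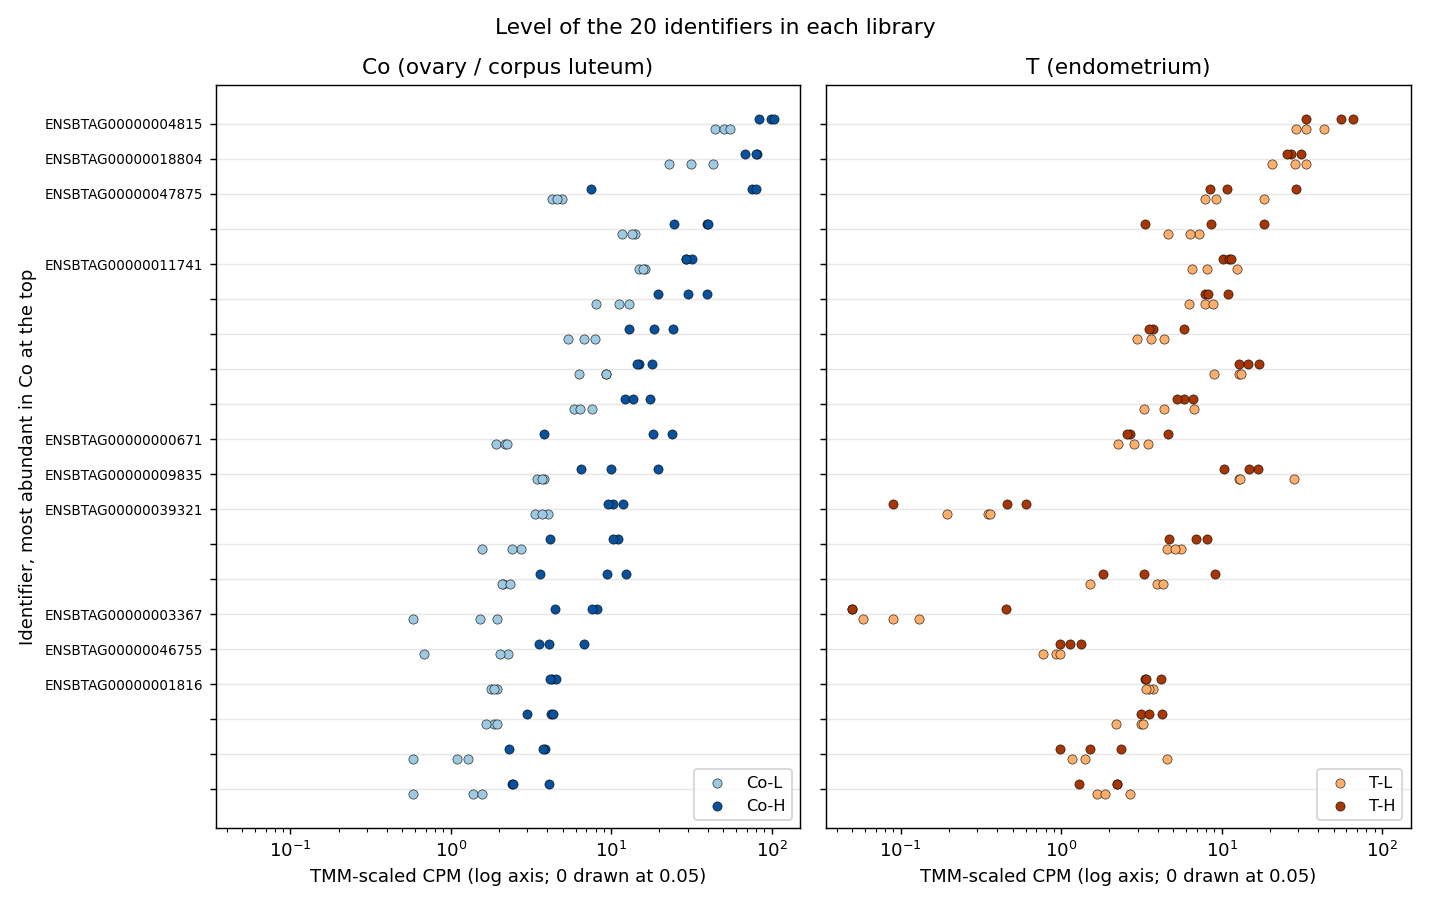
Level of each of the 20 genes in the 12 libraries, in TMM-scaled CPM on a log axis, with ovarian libraries on the left, endometrial libraries on the right, and 1 point per library; the genes described singly in the text carry their identifiers. In Co the dark Co-H points lie to the right of the pale Co-L points for every gene, as the rule requires, while in T the 2 groups overlap.

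The genes were of modest abundance. Their mean over the 6 Co libraries ran from 2.08 to 72.6 CPM with a median of 8.29, against a median of 24.8 CPM over the 12483 genes at 2 CPM or more in Co. By this mean 6 genes stood above 20 CPM, 8 between 5 and 20 CPM and 6 under 5 CPM, and the most abundant reached the 79.7th percentile of the 12483. The depth behind the low values was small. The lowest raw count in a Co library was between 6 and 565 over the genes and under 20 for 7 of them.

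ENSBTAG00000004815 was the most abundant of the 20. It stood at 44.5, 50.8 and 55.0 CPM in the Co-L libraries and at 99.5, 103 and 83.0 CPM in Co-H 1, Co-H 2 and Co-H 3. In T it stood at 43.8, 29.1 and 33.4 CPM in T-L and at 33.8, 55.8 and 66.0 CPM in T-H. Its Co-H libraries lay close together and 1.90-fold above Co-L on average, from 50.1 ± 5.29 to 95.1 ± 10.7 CPM (SD, n = 3 each). Of its T-H libraries, T-H 1 lay inside the T-L range and T-H 2 and T-H 3 lay above it.

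ENSBTAG00000018804 was next in abundance, at 31.3, 43.3 and 22.8 CPM in Co-L and at 81.2, 80.3 and 68.0 CPM in Co-H. All 6 T libraries lay between 20.5 and 33.4 CPM, with a T-L mean of 27.6 ± 6.55 and a T-H mean of 28.0 ± 2.85 CPM (SD, n = 3 each). Endometrium of either fertility thus lay near the Co-L level, and every T library stood under the lowest Co-H library. In this gene Co-H 1 was the highest Co-H library, the single case among the 20.

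By the ratio of the lowest Co-H to the highest Co-L library, the separation was widest for 2 genes that were nearly silent in endometrium. ENSBTAG00000039321 stood at 3.37, 4.05 and 3.70 CPM in Co-L and at 10.2, 11.9 and 9.52 CPM in Co-H, so that its lowest Co-H library reached 2.35 times its highest Co-L library. ENSBTAG00000003367 stood at 1.51, 1.95 and 0.584 CPM in Co-L and at 4.46, 8.18 and 7.56 CPM in Co-H, a ratio of 2.29 by the same measure. The second rested on few reads, with 6 to 26 counts in the Co-L libraries and 48 to 143 in Co-H. Together with ENSBTAG00000001816 these were the 3 genes whose lowest Co-H library exceeded the highest Co-L library at least 2-fold.

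The edge of the rule ran through closely spaced values. Just inside it lay ENSBTAG00000004815 at a ratio of 1.508 and ENSBTAG00000047875 at 1.522. Just outside lay ENSBTAG00000010166 at 1.498 and ENSBTAG00000012024 at 1.497, which met the other conditions. Their levels were 2.40, 6.83 and 2.14 CPM in Co-L and 12.7, 15.3 and 10.2 CPM in Co-H for the first, and 7.63, 7.28 and 6.23 against 16.5, 11.8 and 11.4 CPM for the second. The median ratio over the 20 genes was 1.60. The pair ENSBTAG00000006541 and ENSBTAG00000006790, which the rule sets aside, had ratios of 1.13 and 1.23 and would not have met it.

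The Co-H libraries did not contribute alike. Co-H 1 was the lowest of the 3 Co-H libraries for 14 of the 20 genes and the highest for 1, while Co-H 2 was the highest for 10 and Co-H 3 for 9. Relative to the Co-L mean, Co-H 1 stood 1.63 to 3.31 times higher with a median of 1.87, Co-H 2 stood 1.76 to 16.4 times higher with a median of 2.88, and Co-H 3 stood 1.66 to 17.5 times higher with a median of 2.95. Over the 12483 genes Co-H 1 was the highest Co-H library for 49.6%, Co-H 2 for 23.9% and Co-H 3 for 26.4%. Co-H 1 was the lowest for 34.2% of them. But among the 1422 genes whose Co-H mean was at least 1.5 times the Co-L mean it was the lowest for 87.9%. The lower position of Co-H 1 was thus common to genes with raised Co-H means and was not particular to the 20. The TMM factors and numbers of detected genes of Co-H 2 and Co-H 3, given above, moved with it, and their part in the result was not tested.

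**Figure D2:**
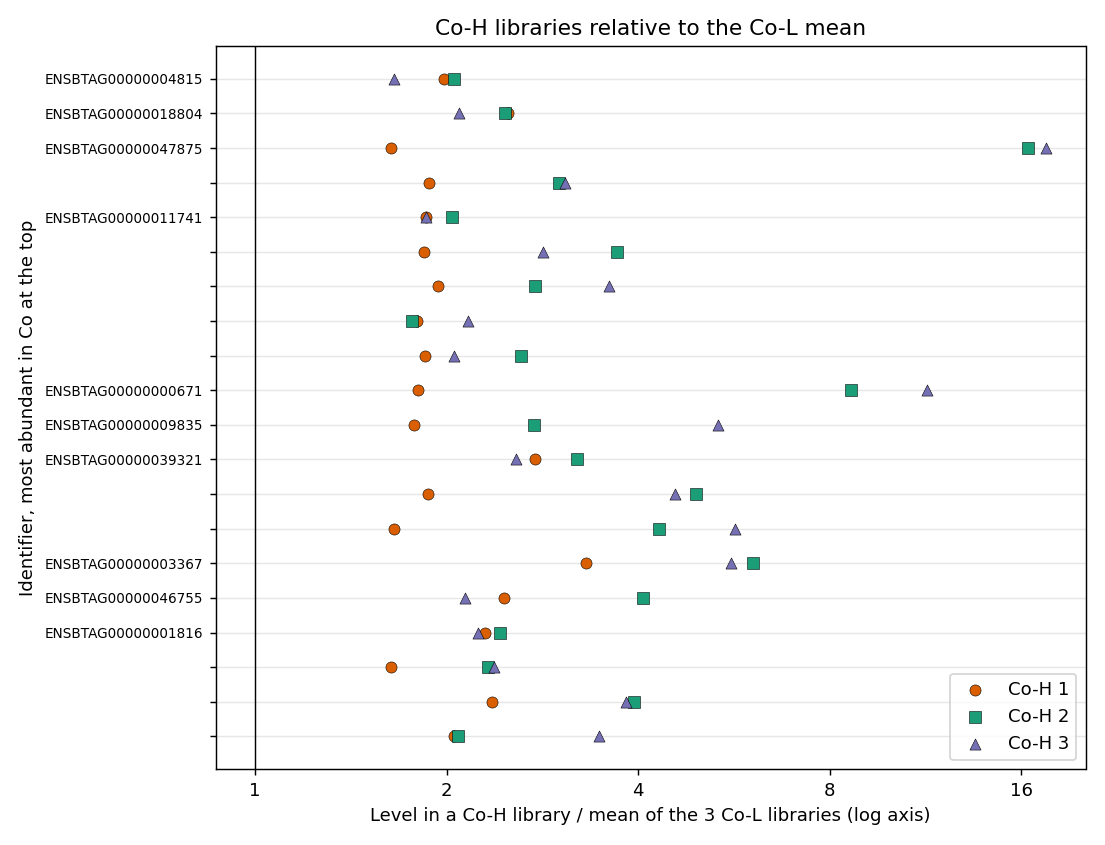
Level in each Co-H library divided by the mean of the 3 Co-L libraries, on a log axis, for the 20 genes in order of abundance in Co; 1 marker per Co-H library and a line at 1. Co-H 1 lies between 1.63 and 3.31 throughout, while Co-H 2 and Co-H 3 reach 16.4 and 17.5 for ENSBTAG00000047875.

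At one end of the spread were genes with a step that Co-H 1 hardly shared. ENSBTAG00000047875 stood at 4.95, 4.28 and 4.58 CPM in Co-L, at 7.53 CPM in Co-H 1, and at 75.4 and 80.5 CPM in Co-H 2 and Co-H 3. The coefficient of variation (CV, the SD as a share of the mean) over Co-H was 74.8%, the highest of the 20, and the mean of Co-H 2 and Co-H 3 was 10.4 times Co-H 1. ENSBTAG00000000671 had the same form at a lower level, with 1.92, 2.18 and 2.24 CPM in Co-L, 3.81 CPM in Co-H 1, and 18.3 and 24.1 CPM in Co-H 2 and Co-H 3. Its CV over Co-H was 67.9%, and the mean of Co-H 2 and Co-H 3 was 5.55 times Co-H 1. In both genes the Co-L libraries agreed closely, with a CV of 7.27% and 7.92%. In all, 4 of the 20 genes had both Co-H 2 and Co-H 3 at least 2-fold above Co-H 1.

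At the other end the Co-H libraries stood nearly level. ENSBTAG00000001816 was at 1.79, 1.95 and 1.85 CPM in Co-L and at 4.28, 4.52 and 4.17 CPM in Co-H, with a CV over Co-H of 4.13%. Its T libraries lay at 3.74, 3.51 and 3.40 CPM in T-L and at 4.18, 3.34 and 3.40 CPM in T-H, close to Co-H. ENSBTAG00000011741 was at 14.98, 16.4 and 15.8 CPM in Co-L and at 29.2, 32.0 and 29.2 CPM in Co-H, with a CV over Co-H of 5.34%. Its T libraries lay lower, at 12.5, 8.13 and 6.54 CPM in T-L and at 10.1, 11.1 and 11.4 CPM in T-H. For these 2 genes the library labelled corpus luteum stood with the other Co-H libraries.

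Over the 20 genes the CV in Co-H had a median of 27.9%, against 17.1% over the genes at 2 CPM or more in Co. The highest Co-H library was at least 2-fold above the lowest in 6 of 20 genes and in 15% of the 12483, and under 1.5-fold above it in 8 of 20. The median of this ratio was 1.68 over the 20, against 1.38 over the 12397 of the 12483 genes for which it is finite. In Co-L the order was turned, with a median CV of 11.7% against 17.5%, and 13 of the 20 genes had a larger CV in Co-H than in Co-L, against 47.2% of the 12483. The rule bounds the highest Co-L and the lowest Co-H value, so these spreads follow in part from it.

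In the model fitted to all 14839 genes with enough counts, 13 of the 20 were called higher in Co-H than in Co-L, beside 2.46% of all genes, and nothing is read from that share because the rule used the contrast (edgeR quasi-likelihood test, adjusted p under 0.05). The fitted log2 changes of the 13 ran from 0.92 to 3.56, with adjusted p between 0.0463 and 0.0479. The other 7 had log2 differences of 1.07 to 2.29 and edgeR adjusted p of 0.0513 to 0.0822. Most of the 7 were less abundant, with a median of 3.23 CPM in Co against 12.0 CPM in the 13. All 20 had an unadjusted p under 0.05, as did 28.8% of all genes.

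The 13 calls sat so near the threshold that 1 library ended them. The edgeR count was 20 without Co-H 1, where 20.5% of all genes were called in either direction, and 9 without Co-L 1, where 7.47% were, against 4.78% with all libraries. It was 0 without Co-L 2 or Co-L 3, without Co-H 2 or Co-H 3, and without any single one of the 6 T libraries. In these settings 19 of the 20 genes (without Co-H 3) or all 20 (without any of the others) had an unadjusted p under 0.05. Nothing is read from these counts, because the rule used the contrast and 28.8% of all genes had such a p with all libraries. With any of these libraries left out at most 0.0462% of all genes were called, so the loss ran through the whole series. It was also 0 with the 6 Co libraries alone (0.00741% of all genes called), without a count filter (0.0152%) and with the replicate number as a block (0%). DESeq2 called 20 of the 20, with 15.3% of all genes, and limma-voom with quality weights 19, with 30.6%. The count among the 20 was thus 0 in every setting with at most 0.0462% of all genes called. Elsewhere it did not move in step with that share. Without Co-L 1 the share rose from 4.78% to 7.47% while the count fell from 13 to 9.

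**Figure D3:**
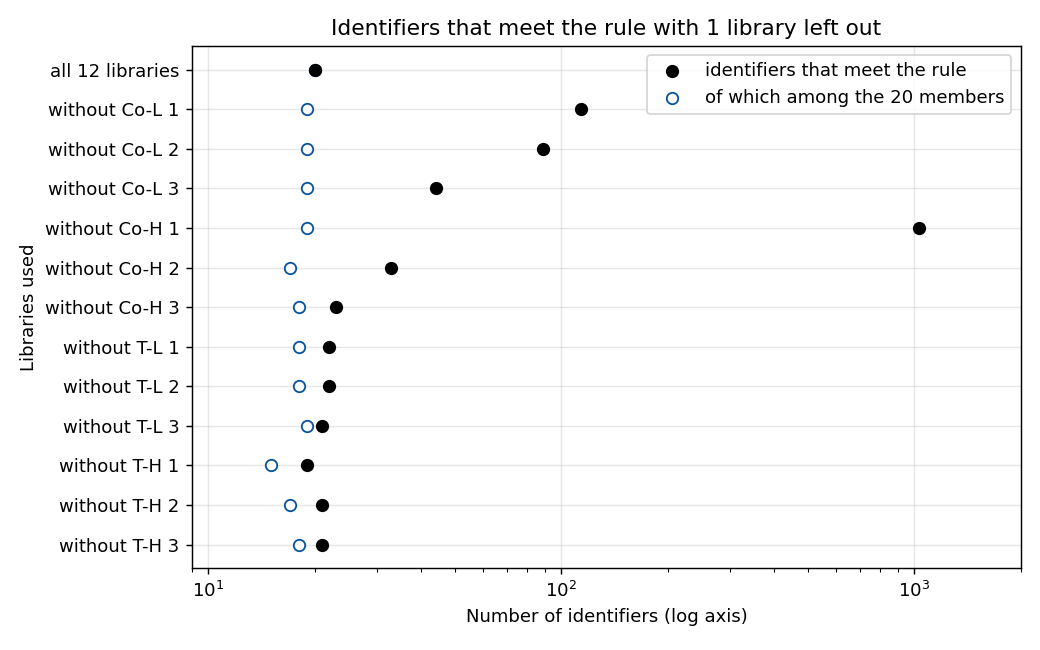
Number of genes that meet the rule when 1 library is left out and the scaling is redone, on a log axis, with filled points for all such genes and open points for those among the 20. The filled points lie between 19 and 114 except without Co-H 1, where 1031 genes meet the rule.

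The number of genes that met the rule depended mainly on Co-H 1. Without it 1031 genes met the rule in place of 20, and 19 of the 20 were among them. Without Co-L 1, Co-L 2 or Co-L 3 the number was 114, 89 or 44, and without Co-H 2 it was 33. Without Co-H 3, the library labelled corpus luteum, 23 genes met it, 18 of them among the 20. Leaving out a library of the compared groups makes the rule easier to meet, so some rise follows from its form. On CPM of the unadjusted library total 45 genes met the rule, 15 of the 20 among them. In the opposite direction, with every Co-L library at least 1.5 times every Co-H library and T overlapping, 80 genes met the mirrored rule (0.641% of the 12483).

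In endometrium none of the 20 genes was called between T-H and T-L in edgeR, nor was any of the 14839 genes (0%). An unadjusted p under 0.05 was reached by 1 of the 20, ENSBTAG00000004815, and by 4.1% of all genes. DESeq2 called 0 of the 20 beside 0.182% of all genes, and limma-voom with quality weights 0 beside 0.0202%. The fitted log2 differences of T-H from T-L were above 0 in 17 of the 20 genes and in 51.5% of the genes at 2 CPM or more in Co. Their median was 0.32 against 0.01 over those genes, and they ran from −0.57 to 0.72. Most of the 20 thus had a fitted difference in endometrium of the same sign as in the ovary, by amounts that did not pass. All 20 were measured in the same libraries, and the rule used their T levels. The count of signs is therefore a description and was not tested. The highest T library was T-H 1 for 7 of the 20, T-H 2 for 2 and T-H 3 for 5. It was T-L 1 for 3, T-L 2 for 3 and T-L 3 for 0.

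Summed over the 20 genes, the level was 161, 192 and 160 CPM in Co-L and 351, 511 and 490 CPM in Co-H 1, Co-H 2 and Co-H 3. In T the sum was 178, 155 and 145 CPM in T-L and 187, 184 and 206 CPM in T-H, so the T groups did not overlap in the sum although each gene overlapped singly. Without ENSBTAG00000004815 the T sums were 135, 126 and 111 CPM in T-L against 154, 128 and 140 CPM in T-H, which overlapped. Leaving out 1 gene at a time, the T sums overlapped for 4 of the 20 genes, so their separation was narrow.

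ENSBTAG00000046755, singled out after its values were seen, overlapped in T by a narrow margin. Its T-L libraries stood at 0.775, 0.935 and 0.985 CPM and its T-H libraries at 1.33, 0.983 and 1.13 CPM, and the raw counts behind them were 11 to 16. The overlap lay in the third decimal between T-L 3 and T-H 2. In Co it stood at 2.27, 2.03 and 0.682 CPM in Co-L and at 4.09, 6.75 and 3.54 CPM in Co-H. It met the rule in 4 of the 18 other settings of the rule, the other 19 genes in 13 to 17.

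Whether the fertility contrast differed between the tissues was asked of each gene directly. The difference was called for 0 of the 20 genes and for 0% of all 14839 in edgeR, while 11 of the 20 and 16.3% of all genes had an unadjusted p under 0.05. DESeq2 called 2 of the 20 beside 0.91% of all genes, limma-voom with quality weights 7 beside 11.3%, and edgeR without Co-H 1 called 7 beside 8.15%, each with the larger change in Co. The fitted differences, T minus Co, ran from −3.11 to −0.37 with a median of −1.21, and were below 0 for all 20, which the rule favours. An effect in the ovary alone is thus not shown for these genes by edgeR on all libraries.

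Against the other tissue, 10 of the 20 genes were lower in T than in Co and 1 was higher, in edgeR over all 12 libraries. This contrast was not used by the rule except through its minimum of 2 CPM in Co and the raised Co-H levels, which both lean towards Co. Over all 14839 genes 32.7% were called lower in T and 31.7% higher, and over the 12427 of them at 2 CPM or more in Co 37.4% and 26.4%. The median fitted log2 change of T against Co was −0.77 over the 20, against −0.12 over those 12427. The count called was 11 or 12 in each of the 18 alternatives run for this contrast. In these 50.3% to 70.1% of all genes were called in either direction, against 64.4% in the main setting.

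**Figure D4:**
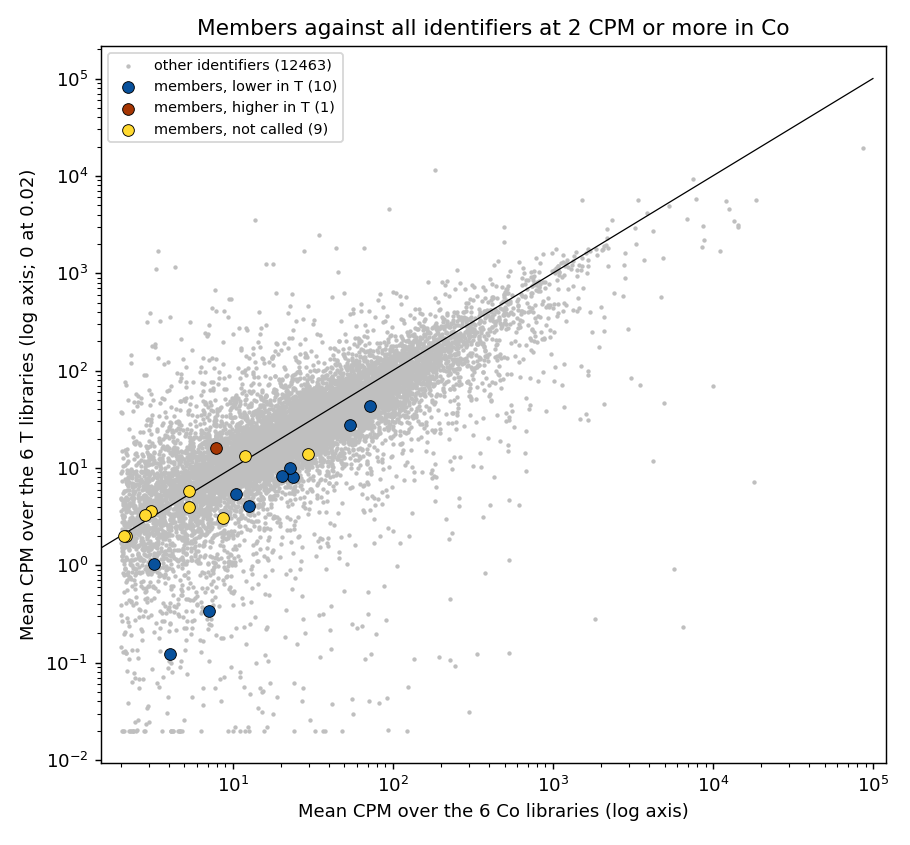
Mean level over the 6 T libraries against mean level over the 6 Co libraries, both in TMM-scaled CPM on log axes, for the 12483 genes at 2 CPM or more in Co (grey) and the 20 genes (coloured by the edgeR call between tissues), with a line of equal levels. The 10 genes called lower in T lie under the line, and 2 of them, at 0.122 and 0.343 CPM in T, lie far under it.

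The largest differences from endometrium were those of the 2 genes with the largest ratio of lowest Co-H to highest Co-L library. By the ratio of the Co-H to the Co-L mean, ENSBTAG00000047875 (11.8) and ENSBTAG00000000671 (7.28) stood farther apart, and neither was called between tissues. ENSBTAG00000003367 had 10 counts in all over the 6 T libraries, with 0 in T-H 1 and T-H 2 and at most 0.454 CPM, in T-H 3. Its mean was 4.04 CPM over Co and 0.122 over T, a fitted log2 change of −4.59 (SE 0.63, edgeR adjusted p = 6.72e-05). Of its 10 counts in T 6 lay in T-H 3, and without that library, when both other T-H libraries are at 0 and the fitted value depends on the prior count, it was −6.59 (edgeR adjusted p = 1.62e-05). Over the other 17 alternatives it stayed between −4.85 and −4.20, with adjusted p of up to 0.000534 (edgeR, DESeq2 or limma). ENSBTAG00000039321 had 29 counts over T, at 0.194, 0.351 and 0.358 CPM in T-L and 0.0889, 0.459 and 0.605 CPM in T-H. Its mean was 7.13 CPM over Co and 0.343 over T, a fitted log2 change of −4.16 (SE 0.32, edgeR adjusted p = 7e-07). For both genes every T library lay under every Co library, which held for 3 of the 20 genes and for 23.2% of the 12483. The other 8 genes called lower in T changed less, among them ENSBTAG00000011741 (log2 change −1.14, SE 0.15, edgeR adjusted p = 3.77e-05) and ENSBTAG00000018804 (log2 change −0.85, SE 0.16, edgeR adjusted p = 0.000725).

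ENSBTAG00000009835 was the one gene of the 20 called higher in endometrium. It stood at 3.44, 3.83 and 3.70 CPM in Co-L and at 6.51, 10.01 and 19.5 CPM in Co-H, with the library labelled corpus luteum the highest. In T it stood at 28.2, 12.9 and 13.1 CPM in T-L and at 10.4, 16.8 and 14.9 CPM in T-H, 16.05 CPM on average against 7.83 CPM in Co. Its fitted log2 change of T against Co was 1.26 (SE 0.29, edgeR adjusted p = 0.00265). Co-H 3 lay inside the T range, and the Co-L libraries lay well under it.

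The remaining 9 genes were not called between the tissues, with fitted log2 differences of −0.91 to 0.39 and edgeR adjusted p of 0.0524 to 0.843. ENSBTAG00000047875 stood at 9.23, 7.89 and 18.4 CPM in T-L and at 29.2, 10.8 and 8.47 CPM in T-H, above all Co-L libraries and under Co-H 2 and Co-H 3. ENSBTAG00000000671 stood at 2.26, 2.86 and 3.49 CPM in T-L and at 4.63, 2.69 and 2.57 CPM in T-H, also above its Co-L libraries. In both genes T-H 1 was the highest T library, as it was for 7 of the 20 genes and for 23.1% of the 12483.

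Set on the scale of the ovarian groups, the mean endometrial level was under the lowest Co-L library for 7 genes and inside the Co-L range for 3. It lay between the highest Co-L and the lowest Co-H library for 5 and at or above the lowest Co-H library for 5. The CV over the 6 T libraries had a median of 25.2% over the 20 genes, against 14.3% over the genes at 2 CPM or more in Co.

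The 11 genes that were not named by the rule for single description filled the range between these examples. Their means over Co ran from 2.08 to 23.9 CPM and over T from 1.02 to 13.3 CPM. The ratio of the Co-H to the Co-L mean ran from 1.91 to 3.88 with a median of 2.77, and the CV over Co-H from 11.5% to 52.7% with a median of 30.1%. Their fitted log2 differences of T against Co ran from −1.49 to 0.39.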

How the data were processed

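Each library has 1 deposited file of raw counts for 24616 genes under cattle identifiers, per the file headers. The submitters' processing notes name Bowtie 0.12.2 throughout and the build bosTau8 (cattle) for 7 libraries, with no build for the other 5. The sources used here give no counting tool, annotation release or strand setting. Reads shared by near-identical or overlapping genes cannot be told apart, and sheep reads on cattle genes may be undercounted where the species differ.

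A blank line in 1 file was skipped, and a header that ran into the first gene was split. Groups and replicate numbers came from the sample titles. In R 4.3.3 with edgeR 4.0.16, TMM factors were computed on genes with a summed count of 120 or more, with library totals over all genes. Tests used genes kept by filterByExpr (minimum count 10), 1 mean per group over all 12 libraries, glmQLFTest and Benjamini-Hochberg adjustment over 14839 genes. The fits were tested on simulated data. Alternatives were RLE scaling, unadjusted totals, other filters and rule limits, DESeq2 1.42.0, limma-voom (limma 3.58.1), a replicate block and leaving out libraries. The members, rules and lists were chosen with earlier results of these data known. Named genes were the 2 most abundant, the 2 with the widest ratio, those farthest apart between tissues, the ends of the Co-H spread and the edges of the rule. The planned gene lists and cell type markers could not be applied without gene names.

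Chi-square statistics per degree of freedom of 18.0 to 135 over the 12 pairs within groups showed no library deposited more than once within a group. Depth limits precision as given with the counts.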

Additional observations from a re-analysis of the deposited data

How the results depend on the processing

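The number of genes that met the rule was 20, and 22 with RLE scaling and 14 at a minimum of 5 CPM in Co. It was 45 on CPM of the unadjusted total, 134 at a ratio of 5 to 4, 3 at a ratio of 2 and 34 at a minimum of 1 CPM in Co. With 1 library left out it ranged from 19 to 1031.

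Calls of Co-H against Co-L among the 20 genes numbered 13 (4.78% of all genes called in either direction). They also numbered 13 with RLE scaling (5.3%) and with a filter of 1 CPM in 3 libraries (5.57%). They numbered 0 without a count filter (0.0152% of all genes called), 0 with the 6 Co libraries alone (0.00741%), 20 with DESeq2 (15.3%) and 19 with limma-voom with quality weights (30.6%), and from 0 to 20 with 1 library left out (0% to 20.5%). With the replicate number as a block 0 were called (0%). The numbers are not known to pair libraries: same-numbered libraries of different groups had deviations correlated between −0.29 and 0.23, over 0.1 in 3 of 18 pairs, and 5 of 12 libraries correlated best with their own number. The block changed no other count of calls among the 20 genes.

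Calls of the difference between tissues numbered 0 in edgeR, 2 with DESeq2 (0.91% of all genes), 7 with limma-voom with quality weights (11.3%) and from 0 to 7 with 1 library left out (0% to 8.15%). The causes were not tested. Calls between tissues stayed at 11 or 12 in every alternative run, where 50.3% to 70.1% of all genes were called in either direction. Calls of T-H against T-L stayed at 0, where 0% to 0.182% of all genes were called. Depth limits the least abundant genes, whose Co-L values rest on as few as 6 counts.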
